A study of Mus musculus with 12 samples.

Results

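Beta-defensins and antimicrobial proteins of mouse ear skin were followed across housing and treatment. They comprise 8 genes chosen by symbol from the 24532 genes of the deposited table. These are the beta-defensins Defb1, Defb3, Defb4, Defb6 and Defb14, the protease inhibitor Slpi, the cathelicidin gene Camp and the lipocalin gene Lcn2. RNA from whole skin was sequenced in 12 libraries in 4 groups of 3. MC903 is calcipotriol, a vitamin D analogue used to produce skin inflammation resembling atopic dermatitis in mice, and ethanol is its vehicle. The study's title asks how the microbiota alters the transcriptome of such inflamed skin.

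The groups were germ-free (GF) skin given MC903, with libraries labelled 1, 4 and 5, GF skin given ethanol, with libraries 1, 4 and 5, specific-pathogen-free (SPF) skin given MC903, with libraries 1, 2 and 3, and SPF skin given ethanol, with libraries 1, 2 and 3. The labels name the strain C57BL/6 in 9 libraries, C57BL/7 in GF MC903 4, C57BL/8 in GF ethanol 5 and C57BL/9 in GF MC903 5. The last digit of these labels runs up by 1 from sample to sample at the end of the list, so whether these 3 libraries come from another strain cannot be told from the labels. MC903 or ethanol was applied 5 times, though how these were spread over days is unclear, and no age or sex is named. No transgene or deletion is named. The same numbers recur with MC903 and with ethanol in each housing, so same-numbered libraries may come from the same mouse, which the labels do not state. Nothing in the labels ties the libraries of a group to separate mice. The p-values therefore reflect how far these libraries scatter, which may be technical.

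Beta-defensins are small cationic peptides, secreted by epithelia, that are held together by disulfide bonds and damage microbial membranes. Some are made constantly and others are induced by microbial products and by cytokines such as interleukin-17, interleukin-22 and interleukin-1. Several also attract immune cells through chemokine receptors. Slpi inhibits neutrophil elastase and related serine proteases and is itself antimicrobial, Lcn2 withholds iron by binding bacterial siderophores, and Camp encodes the precursor of the mouse cathelicidin peptide CRAMP. In humans, vitamin D induces CAMP through an element of its promoter that mice lack.

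Of the members, 5 lie on chromosome 8 of GRCm38. Defb14 (Entrez ID 244332) spans chr8:19160244-19195309, Defb4 (56519) chr8:19198704-19201547, Defb6 (116746) chr8:19225478-19228209 and Defb3 (27358) chr8:19293361-19295339, so these genes are neighbours. Defb1 (13214) lies apart at chr8:21776555-21795185. Slpi (20568) and Lcn2 (16819) are on chromosome 2, at chr2:164354070-164356507 and chr2:32384637-32387739, and Camp (12796) is at chr9:109847377-109849456. RefSeq promoter sequence (GRCm38.p6) was at hand for 5 of the 8 members, and the 250 bases before the start of transcription are given for 4 of them, 5' to 3'. Defb6 and Defb3 are shown because they are close relatives in sequence that moved in opposite directions with MC903. Capitals in this pair mark the bases that differ between the aligned windows, and ends without a counterpart are in lower case.
Defb6 (chr8:19225228-19225477, plus strand): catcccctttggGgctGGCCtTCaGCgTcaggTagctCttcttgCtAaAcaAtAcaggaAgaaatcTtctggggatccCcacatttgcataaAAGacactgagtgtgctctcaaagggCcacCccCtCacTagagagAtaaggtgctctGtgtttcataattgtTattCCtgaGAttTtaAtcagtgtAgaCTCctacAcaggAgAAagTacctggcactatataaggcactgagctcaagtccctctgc
Defb3 (chr8:19293111-19293360, plus strand): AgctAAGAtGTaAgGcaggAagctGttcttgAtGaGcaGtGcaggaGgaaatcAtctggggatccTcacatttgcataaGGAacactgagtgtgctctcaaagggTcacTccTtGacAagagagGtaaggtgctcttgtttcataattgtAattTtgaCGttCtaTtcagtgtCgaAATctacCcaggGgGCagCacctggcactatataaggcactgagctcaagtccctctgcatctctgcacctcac

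The windows of Defb6 and Defb3 were identical at 192 of 238 aligned columns, or 80.7%, with a longest identical run of 40 bases. The last 25 bases before the Defb6 start held 0 differing bases. The 25 bases farthest from it held 8, though only part of these had a counterpart in the Defb3 window. The kappaB consensus, the letters bound by NF-kappaB factors, occurred in Defb6 at 180 to 171 bases before the start, as ggggatcccc, and reads as a match on both strands. The aligned stretch of Defb3 is ggggatcctc, which differs by C9T, counted from 1 at the 5' end of the match. Of 27025 mouse promoter windows searched on both strands, 4.78% held this consensus, and 1 of the 5 member windows did. The letters TTGCNNAA, a loose form of the C/EBP motif, were in 4 of the 5 windows, against 9.55% of all promoters. Defb6 held them at 209 to 202 and 166 to 159 bases before the start, and Defb3 at 179 to 172. The Defb3 match aligns with the one at 166 to 159 in Defb6, so the windows of this pair are not independent counts.

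Slpi and Lcn2 are shown as the members outside the defensin family that rose with MC903. Capitals mark matches to TTGCNNAA on either strand and, in Slpi, to the E-box CACGTG.
Slpi (chr2:164356508-164356757, minus strand): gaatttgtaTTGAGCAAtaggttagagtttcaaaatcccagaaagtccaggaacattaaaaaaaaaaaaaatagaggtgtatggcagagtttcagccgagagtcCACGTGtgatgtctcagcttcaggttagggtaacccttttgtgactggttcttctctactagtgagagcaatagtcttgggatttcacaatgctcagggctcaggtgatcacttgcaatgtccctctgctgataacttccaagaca
Lcn2 (chr2:32387740-32387989, minus strand): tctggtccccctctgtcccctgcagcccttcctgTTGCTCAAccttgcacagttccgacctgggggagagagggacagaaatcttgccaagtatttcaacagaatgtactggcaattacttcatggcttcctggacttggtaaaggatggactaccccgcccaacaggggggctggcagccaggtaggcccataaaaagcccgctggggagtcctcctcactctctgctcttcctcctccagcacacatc

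TTGCNNAA lay at 241 to 234 bases before the start of Slpi, on the opposite strand, and at 216 to 209 bases before that of Lcn2. CACGTG lay at 146 to 141 bases before the Slpi start, and 6.05% of all promoters held it. The direct repeat bound by the vitamin D receptor, searched as AGGTCA or GGTTCA half-sites spaced by 3 bases, was in 0 of the 5 member windows and in 0.0148% of all promoters. The half-site GGTTCA occurred in Camp (8.87% of all promoters) and AGGTCA in no member window (13.8%). TGAGTCA, TTCNNNGAA, TTGCGCAA and TATAAA were found in none of the 5 windows, against 4.43%, 7.18%, 0.17% and 13% of all promoters. These matches describe the letters of the windows.

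Reads per library, summed over genes, ranged between 36358294 and 48225425. Of 16466 genes that passed the filter on low counts, 7 were members, and Camp was below it. Levels are given as CPM, counts scaled to a common library size, on library sizes scaled by TMM, the trimmed mean of M-values, with factors of 0.8065 to 0.836 in MC903 libraries and 1.1559 to 1.251 in ethanol libraries. With plain library totals the median log2 change over all genes moved by -0.51 in GF skin and by -0.58 in SPF skin. The split of calls then went to 2795 higher and 9697 lower in GF skin, against 5497 and 5777 with TMM. In SPF skin it went to 3127 and 10106, against 5755 and 6394. The basal keratinocyte markers Krt5, Krt14, Col17a1 and Itgb4 summed to 9380 CPM or more in every library, but the sum shifted with treatment. In GF skin it was 29500 to 29700 CPM with MC903 and 11400 to 13100 CPM with ethanol. In SPF skin it was 27900 to 31800 CPM with MC903 and 9380 to 10500 CPM with ethanol. Of the 4 markers, 2 rose with MC903 and 1, Col17a1, fell in each housing. Members called numbered 6 higher and 1 lower in each housing under both scalings of library size.

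Between-gene comparisons used the deposited FPKM, which is corrected for gene length. The 8 members together reached 856.3 ± 134 FPKM in GF MC903 skin, 165.1 ± 2.94 in GF ethanol skin, 1219 ± 109 in SPF MC903 skin and 155 ± 16.4 in SPF ethanol skin (SD, n = 3 each). In MC903-treated skin Slpi held the largest share of this sum, at 47.2% in GF and 52.5% in SPF libraries, followed by Defb14 at 25.4% and 21.1%. Ethanol-treated skin was led by Defb6, at 74.5% of the sum in GF and 67.7% in SPF libraries, followed by Defb1 at 14.9% and 20.4%. With MC903, Defb6 held 6.03% of the sum in GF and 0.328% in SPF libraries. The dominant transcript thus differed between the treatments in both housings, and the shares do not depend on library scaling, since each is taken within a library.

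**Figure D1:**
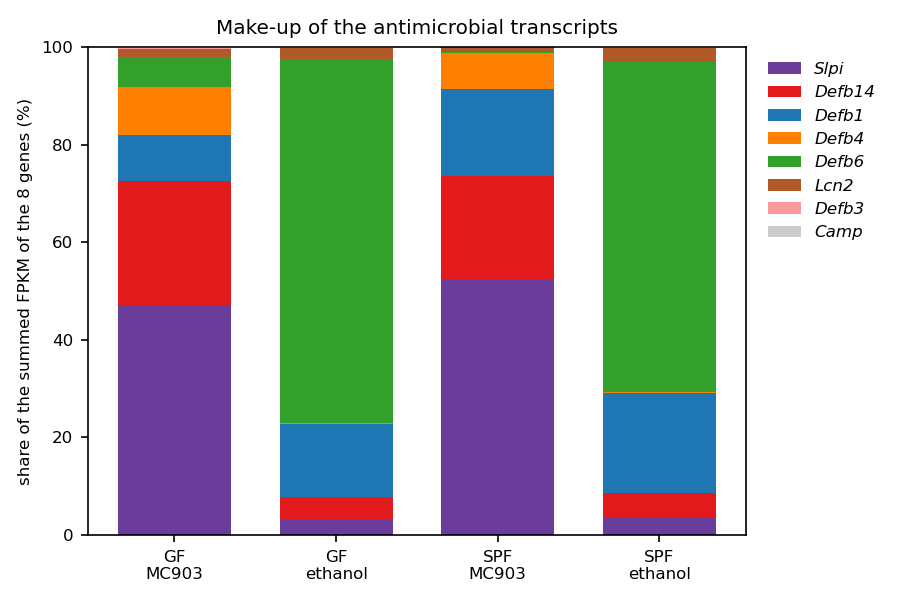
Stacked bars give the mean share (%) of each gene in the summed FPKM of the 8 genes, for GF MC903, GF ethanol, SPF MC903 and SPF ethanol skin (3 libraries each). Defb6 fills 74.5% and 67.7% of the GF and SPF ethanol bars, and Slpi 47.2% and 52.5% of the GF and SPF MC903 bars.

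With MC903, 6 of the 7 tested members rose and 1, Defb6, fell, in GF skin and likewise in SPF skin (edgeR quasi-likelihood test, Benjamini-Hochberg adjusted p under 0.05). Changes were common: 68.5% of all tested genes were called in GF skin, made up of 33.4% as higher and 35.1% as lower. In SPF skin 73.8% were called, made up of 35% as higher and 38.8% as lower. The median log2 change of the tested members was 5.36 in GF skin and 5.57 in SPF skin, against -0.07 and -0.10 over all tested genes. With Defb3 set at its lower bound, the member medians were 5.36 and 4.66. Every one of the 7 had MC903 libraries that did not overlap the ethanol libraries of the same housing, 6 higher and 1 lower. That held for 74% of all tested genes in GF skin (35.6% higher, 38.4% lower) and 76.7% in SPF skin (35.8% higher, 40.9% lower). With ethanol Defb3 was undetected and Defb4 nearly so, and both passed the filter on low counts through their MC903 libraries. Their place on the higher side therefore follows from that filter. Camp, whose MC903 and ethanol libraries overlapped in both housings, was left out by it. In whole skin, a higher or lower level could mean more or fewer cells of a type, or more or less RNA per cell. These cannot be told apart.

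**Figure D2:**
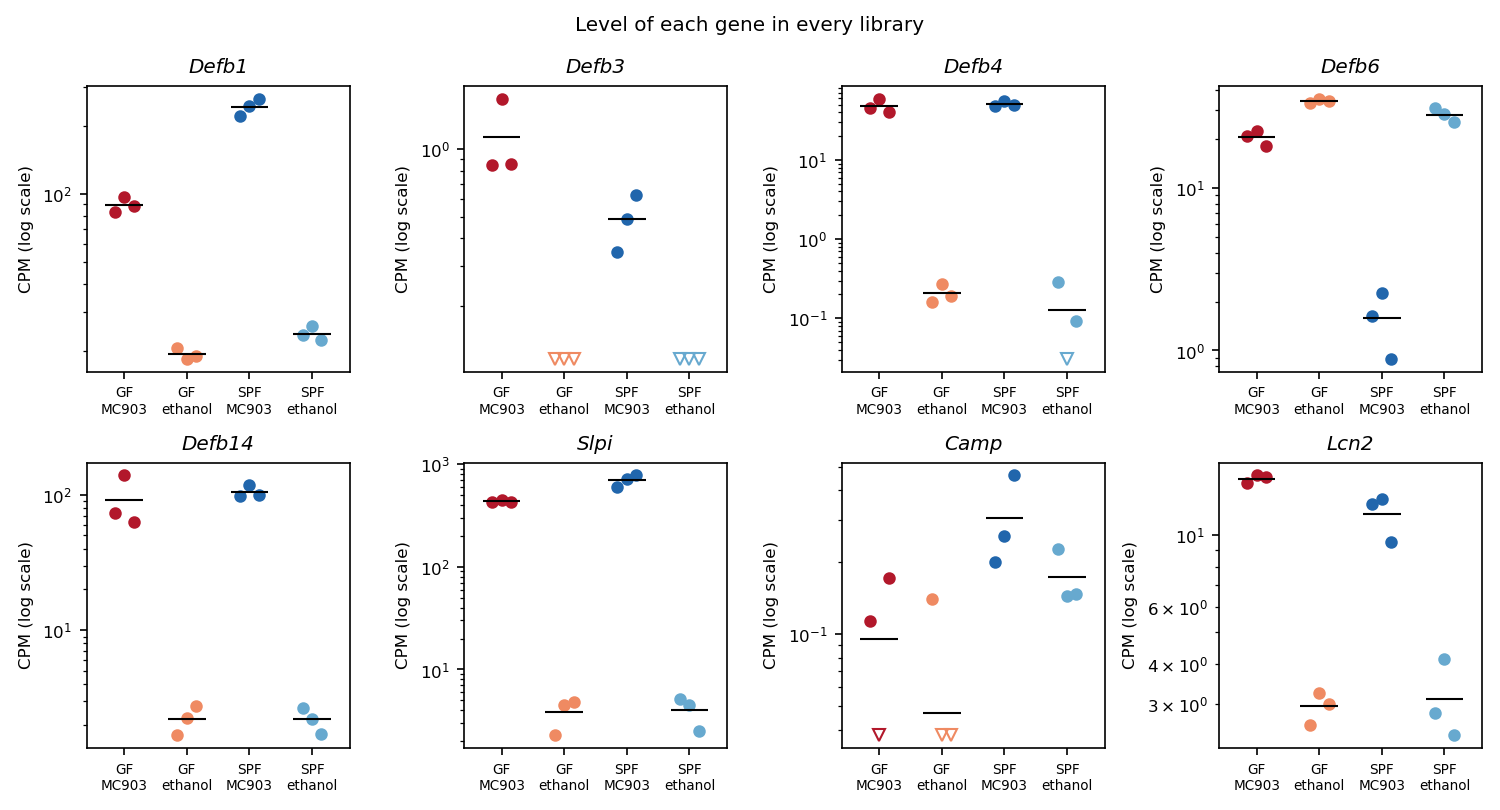
Each panel shows the level of 1 gene as CPM on a log axis in GF MC903, GF ethanol, SPF MC903 and SPF ethanol skin. Points are libraries, black lines are group means (n = 3) and open triangles at the foot of a panel are libraries with 0 counts. Defb6 drops furthest in SPF MC903 skin. Defb3 is at 0 in every ethanol library and Defb4, at a mean of 0.208 CPM in GF and 0.126 CPM in SPF ethanol skin, is close to it.

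Defb4 is an inducible beta-defensin, related to human beta-defensin 2. It reached 45.9, 59.0 and 40.2 CPM in GF MC903 libraries 1, 4 and 5, against 0.16, 0.275 and 0.189 CPM with ethanol. In SPF skin it reached 48.4, 55.8 and 48.8 CPM with MC903 (libraries 1, 2 and 3), against 0.285, 0 and 0.0922 CPM with ethanol. It had the largest fitted changes among members with counts in both treatments. The log2 change was 7.85 in GF skin (SE 0.38, edgeR adjusted p = 7.91e-09) and 8.60 in SPF skin (SE 0.40, adjusted p = 1.9e-09), where the ethanol level rests on 20 counts over 3 libraries. Leaving out 1 library at a time moved the SPF change between 8.07 and 9.95 and the difference between the housings between -2.11 and -0.22 (adjusted p between 0.0672 and 0.825). The 2 changes did not pass the test of their difference (-0.76, SE 0.68, adjusted p = 0.497).

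Defb14, the mouse counterpart of human beta-defensin 3, binds chemokine receptors as well as microbes. Its level was 73.4, 138.3 and 62.7 CPM in GF MC903 libraries 1, 4 and 5, against 1.68, 2.26 and 2.75 CPM with ethanol. In SPF libraries 1, 2 and 3 it was 97.3, 118.4 and 98.7 CPM with MC903, against 2.70, 2.21 and 1.72 CPM with ethanol. GF MC903 4 stood highest of the 12 libraries and the other two GF MC903 libraries below every SPF MC903 library. Its log2 change was 5.36 in GF skin (SE 0.32, edgeR adjusted p = 3.45e-08) and 5.57 in SPF skin (SE 0.32, adjusted p = 1.06e-08). The difference of -0.21 did not pass (SE 0.40, adjusted p = 0.772). The predicted gene Gm39139 overlaps Defb14 but was not found among the genes with deposited counts. The use of strand in counting is not given, so reads of Gm39139 may be counted as Defb14.

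Defb3, another inducible defensin, was detected only in MC903 libraries. It stood at 0.852, 1.67 and 0.859 CPM in GF MC903 libraries 1, 4 and 5, and at 0.35, 0.489 and 0.625 CPM in SPF MC903 libraries 1, 2 and 3. All 6 ethanol libraries held 0 counts. Against a floor of 3 counts over the ethanol group, it was at least 54.4-fold higher with MC903 in GF skin and at least 25.3-fold higher in SPF skin. Leaving out 1 MC903 library at a time moved these bounds between 41.3 and 61 in GF skin and between 21.7 and 28.8 in SPF skin. Both responses passed the edgeR test (adjusted p = 3.37e-05 in GF and 0.000125 in SPF skin), while the test of their difference carries no information with both ethanol groups at 0.

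**Figure D3:**
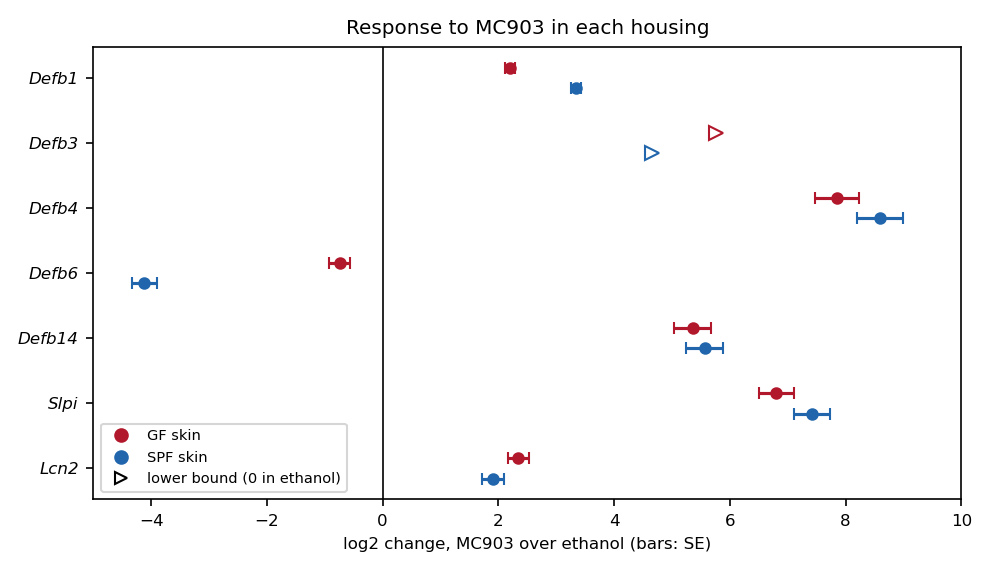
Points give the log2 change of MC903 over ethanol with its SE, for GF skin above SPF skin, in each of the 7 tested genes. Open triangles are lower bounds for Defb3. Defb6 alone lies below 0, at -0.74 in GF and -4.12 in SPF skin.

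Defb6 is a beta-defensin first described in mouse skeletal muscle. GF libraries 1, 4 and 5 had 20.8, 22.5 and 18.2 CPM with MC903, against 33.3, 35.2 and 34.3 CPM with ethanol. SPF libraries 1, 2 and 3 had 1.62, 2.26 and 0.888 CPM with MC903, against 30.9, 28.3 and 25.4 CPM with ethanol. With ethanol all 6 libraries lay between 25.4 and 35.2 CPM, and with MC903 every GF library lay above every SPF library. Its log2 change was -0.74 in GF skin (SE 0.18, edgeR adjusted p = 0.00288) and -4.12 in SPF skin (SE 0.22, adjusted p = 5.47e-09), or 1.67-fold and 17.4-fold lower. These responses differed by 3.38 (SE 0.28, adjusted p = 3.45e-05). Over all tested genes, 17% were called for this difference, made up of 7.75% as higher and 9.26% as lower in GF. On library totals the GF change of Defb6 was -1.25 and the difference 3.45.

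Markers of other tissue also moved with MC903. The 3 skeletal muscle markers (Acta1, Myh4, Ckm), of which none was at 0, summed to 572 to 635 CPM in GF MC903, 999 to 1090 in GF ethanol, 361 to 394 in SPF MC903 and 591 to 699 in SPF ethanol skin. All 3 fell with MC903 in both housings and were higher in GF than SPF skin under both treatments. None of the 3 was called for a difference between the housings' responses. For Acta1, the muscle actin, this difference was -0.10 (edgeR adjusted p = 0.492). Krt10, a keratin of differentiated epidermis, was 0.67 higher with MC903 in GF skin and 0.49 lower in SPF skin on the log2 scale (difference 1.16, edgeR adjusted p = 0.00246). Of the 5 markers of differentiated keratinocytes, the response of 1, Krt10, was higher in GF skin and that of 2 lower, Krt1 (-1.10, adjusted p = 0.00222) and Ivl (-0.77, adjusted p = 0.00353). Together the 5 summed to 34100 to 36800 CPM in GF MC903, 17900 to 20700 in GF ethanol, 23000 to 30400 in SPF MC903 and 16500 to 18100 in SPF ethanol skin. Of 4 basal keratinocyte markers, the response of 1, Col17a1, was higher in GF skin (0.48, adjusted p = 0.0313) and that of 2 lower. Of 6 hair follicle markers, that of Krt15 was higher (0.69, adjusted p = 0.0205) and that of Tchh lower (-1.24, adjusted p = 0.00707). Of 4 sebaceous gland markers 1 was higher, and no fibroblast marker was called. The part of these tissues in the Defb6 result was not tested.

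Defb1, a defensin that epithelia make constantly, had 83.1, 96.8 and 88.4 CPM in GF MC903 libraries 1, 4 and 5, against 20.8, 18.6 and 19.0 CPM with ethanol. In SPF skin its level was 222.6, 245.1 and 264.2 CPM with MC903 (libraries 1, 2 and 3), against 23.7, 26.0 and 22.4 CPM with ethanol. It was present in every ethanol library and stood lower in GF than SPF libraries under both treatments, without overlap. The gene rose 4.6-fold in GF skin (log2 change 2.2, SE 0.09, edgeR adjusted p = 2.16e-09) and 10.2-fold in SPF skin (3.34, SE 0.09, adjusted p = 5.31e-11). The difference between the responses was -1.14 (SE 0.12, adjusted p = 0.000115). Defb1 and Defb6 were thus the 2 of 7 tested members called for this difference, where 17% of all tested genes were. For Defb3 the test carried no information. The difference was negative for Defb1 and positive for Defb6, and both genes changed less in GF than in SPF skin.

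Slpi was the most abundant member in MC903-treated skin. It stood at 426.9, 441.6 and 426.7 CPM in GF MC903 libraries 1, 4 and 5, against 2.29, 4.52 and 4.79 CPM with ethanol. SPF libraries 1, 2 and 3 held 596.4, 716.8 and 772.8 CPM with MC903, against 5.17, 4.52 and 2.53 CPM with ethanol. The log2 change was 6.81 in GF skin (SE 0.30, edgeR adjusted p = 4.19e-09) and 7.42 in SPF skin (SE 0.31, adjusted p = 8.6e-10). Their difference of -0.61 did not pass (SE 0.35, adjusted p = 0.271). Mir7678 lies within Slpi, and its reads cannot be separated from those of its host.

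Lcn2 changed less than the inducible defensins. It had 14.5, 15.3 and 15.1 CPM in GF MC903 libraries 1, 4 and 5, against 2.59, 3.25 and 3.0 CPM with ethanol. In SPF libraries 1, 2 and 3 it had 12.5, 13.0 and 9.54 CPM with MC903, against 2.81, 4.15 and 2.40 CPM with ethanol. The log2 change was 2.35 in GF skin (SE 0.19, edgeR adjusted p = 3.38e-07) and 1.91 in SPF skin (SE 0.19, adjusted p = 1.14e-06). The difference of 0.44 did not pass (SE 0.26, adjusted p = 0.278).

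Camp was close to undetected, with 4, 0 and 6 counts in GF MC903 libraries 1, 4 and 5 and 7, 0 and 0 with ethanol. SPF libraries 1, 2 and 3 held 8, 10 and 14 counts with MC903 and 12, 7 and 8 with ethanol. A fit with no filter on low counts called it in none of the 5 comparisons, with edgeR adjusted p between 0.262 and 1 and an unadjusted p of at least 0.121. With GF ethanol 1 left out, the other GF ethanol libraries are at 0 and Camp was called in the GF response, for 8 members in place of 7. A level this low does not show whether the gene changed.

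Neutrophils, which store Lcn2, Camp, S100a8 and S100a9, were followed through 14 markers. Their summed level was 26.6 to 29.6 CPM in GF MC903, 16.8 to 19.8 in GF ethanol, 19.1 to 20.8 in SPF MC903 and 14 to 17.9 in SPF ethanol skin. Of 9 markers tested, 5 rose and 1 fell in GF skin, and 3 rose and 2 fell in SPF skin, where 68.5% and 73.8% of all tested genes were called in either direction. Ly6g was at 0 in GF ethanol, SPF MC903 and SPF ethanol skin, and Ngp at 0 in GF ethanol skin and Fpr1 in SPF ethanol skin. The part of neutrophils in the changes of Lcn2 and Slpi was not tested.

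With MC903, GF and SPF skin were compared directly. Of the 7 tested members, 1 was higher in GF skin and 2 were lower, where 41.7% of all tested genes were called, 20.8% as higher and 20.9% as lower. Defb6 was 12.6-fold higher (log2 3.66, SE 0.22, edgeR adjusted p = 4.7e-07). Defb1 was 2.73-fold lower (-1.45, SE 0.09, adjusted p = 4.64e-07) and Slpi 1.61-fold lower (-0.69, SE 0.23, adjusted p = 0.03). The Slpi call was lost without SPF MC903 2 or 3 or any 1 of the 3 GF MC903 libraries (adjusted p between 0.0601 and 0.0998). Libraries did not overlap for 5 of the 7, adding Defb3 and Lcn2 on the higher side, against 50.6% of all tested genes. Defb3 was 2.33-fold higher (1.22, SE 0.43, adjusted p = 0.0509), which passed with limma voom (adjusted p = 0.0171) and in a fit of these 2 groups alone (0.0408). Lcn2 differed by 0.36 (SE 0.17, adjusted p = 0.118) and passed without SPF ethanol 2 (adjusted p = 0.0439). Defb14 differed by -0.20 (SE 0.25, adjusted p = 0.571), and without GF MC903 4 by -0.62 (adjusted p = 0.0177). Defb4 differed by -0.08 (SE 0.24, adjusted p = 0.822).

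With ethanol, GF and SPF skin differed in 1 of the 7, where 22% of all tested genes were called, 10.3% as lower. Defb1 was 1.23-fold lower in GF skin (log2 -0.30, SE 0.09, edgeR adjusted p = 0.0257). That call was lost without SPF ethanol 1 or 2, or GF ethanol 4 or 5 (adjusted p between 0.0558 and 0.101). Defb6 libraries did not overlap either, as in 43.9% of all tested genes, with a difference of 0.28 (SE 0.18, adjusted p = 0.281) that passed in a fit of these 2 groups alone (adjusted p = 0.0329). Defb4, Defb14, Slpi and Lcn2 libraries overlapped, with differences of 0.68, 0.02, -0.07 and -0.08 (adjusted p between 0.477 and 0.979).

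The table holds 43 genes whose symbols start with Defb, 38 of them no members. Of these, 25 had 0 counts in every library and none passed the filter; the highest count in a library was 10, for Defb25. Skin expression of the family was therefore detected mainly for the 5 defensin members. Counted from the start of Defb14, gene centres lie at 17.5 kb for Defb14, 39.9 kb for Defb4, 66.6 kb for Defb6 and 134.1 kb for Defb3, with Defb46 and Defb5 between the last pair. Defb46, Defb7 and Defb8 had 0 counts in every library and Defb5 had 2 counts in all. Defb6 thus fell while the detected defensins on either side of it rose.

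**Figure D4:**
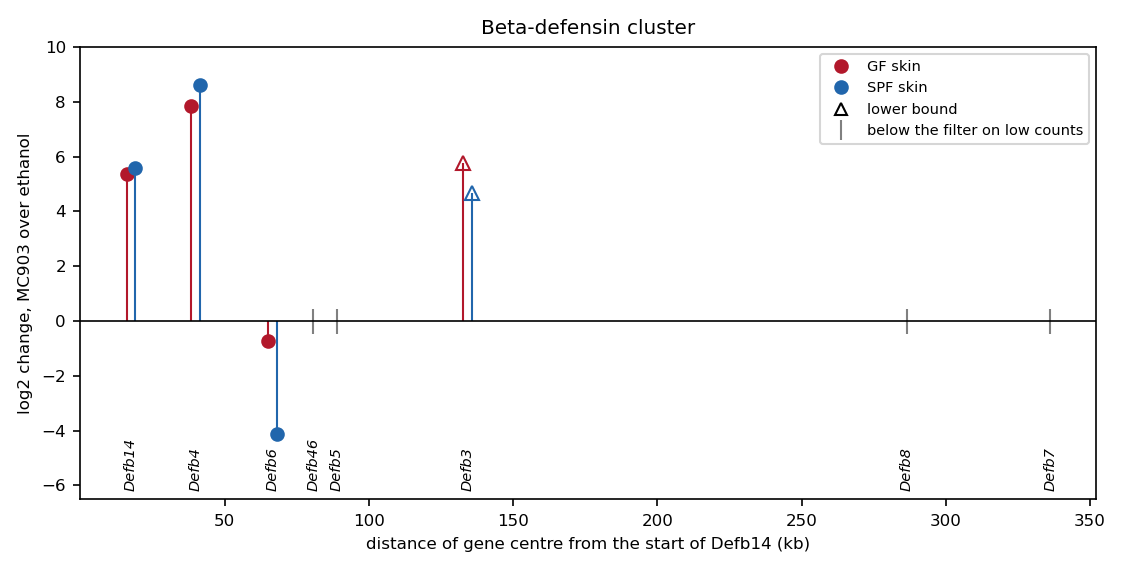
The horizontal axis is the distance (kb) of each gene's centre from the start of Defb14 and the vertical axis the log2 change of MC903 over ethanol in GF and SPF skin. Open triangles are lower bounds and grey ticks are genes below the filter. Defb6, at -0.74 in GF and -4.12 in SPF skin, sits between Defb4 and Defb3, which rose.

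Relatives in sequence can share reads. In GENCODE transcripts, no 100-base window of any member occurred in another gene. At 50 bases, 23 of 405 windows of Defb4, or 5.68%, were shared with Defb8, which had 0 counts. Defb4 and Defb6 transcripts were 82.4% identical, Defb3 and Defb4 76.3%, and the longest stretch shared between any 2 defensin members was 33 bases. Neither the read length nor the handling of reads with several matches is stated, so the values of Defb3, Defb4 and Defb6 carry that uncertainty.

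Other antimicrobial proteins followed a wider range of changes. Of 33 listed genes 26 were tested, and 13 rose and 5 fell in GF skin, and 13 rose and 8 fell in SPF skin, with median log2 changes of 0.65 and 0.60, against -0.07 and -0.10 over all tested genes. Over all tested genes 33.4% were called higher and 35.1% lower in GF skin, and 35% and 38.8% in SPF skin, so the share of the list called in either direction is near that of all genes. The largest in GF skin were Saa1, an acute-phase protein (log2 7.26, edgeR adjusted p = 3.36e-07), S100a8 (6.08, adjusted p = 1.04e-07) and S100a9 (5.55, adjusted p = 1.08e-07). The GF ethanol level of Saa1 rests on only 12 counts over the group. S100a8 and S100a9 form the metal-binding complex calprotectin. In SPF skin they were S100a9 (5.79, adjusted p = 5.49e-08), S100a8 (5.32, adjusted p = 1.38e-07) and the Slpi relative Wfdc12 (5.10, adjusted p = 3.49e-09). The responses of 4 of the 26 genes were higher and of 4 lower in GF than in SPF skin, where 7.75% and 9.26% of all tested genes were. Among these were the peptidoglycan recognition proteins Pglyrp3 (-2.07, adjusted p = 0.00227) and Pglyrp2 (2.01, adjusted p = 0.00623), and S100a7a (-2.01, adjusted p = 0.0451). Pglyrp2 changed by 0.44 in GF skin (adjusted p = 0.195) and fell by 1.57 in SPF skin. Wfdc21 changed by 0.03 in GF skin (adjusted p = 0.861) and fell by 1.51 in SPF skin.

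**Figure D5:**
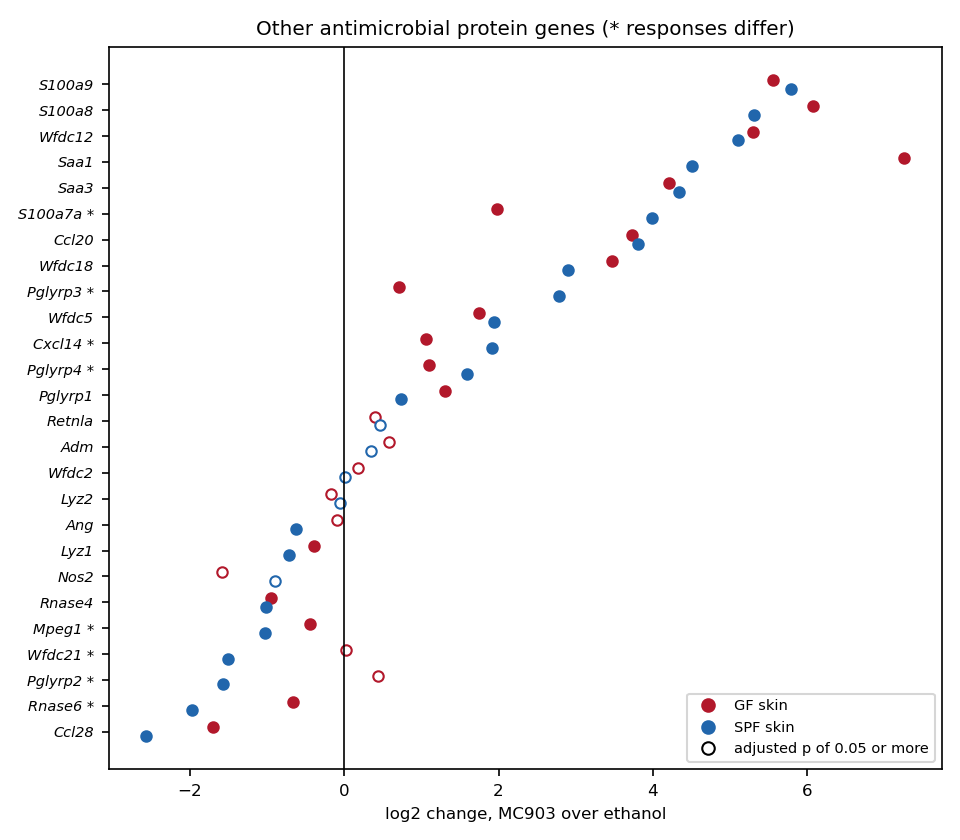
Log2 changes of MC903 over ethanol are shown for the 26 tested genes of other antimicrobial proteins in GF and SPF skin, filled where the adjusted p was under 0.05. An asterisk marks the 8 genes whose responses differed between housings.

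Of the genes that induce or regulate these peptides, 26 of 29 were in the table and 22 were tested. Il36a, Il36b and Il36g were not found under these symbols, which does not show that they were not expressed. In GF skin 10 rose and 6 fell, and in SPF skin 11 rose and 4 fell, against 68.5% and 73.8% of all tested genes called in either direction, so the shares called are near the background. Il1b had a log2 change of 4.19 in GF and 5.03 in SPF skin (edgeR adjusted p = 9.03e-07 and 1.72e-07) and Osm one of 3.41 and 3.68 (adjusted p = 5.4e-06 and 3.07e-06). Il1rl2, the receptor for interleukin-36, had one of -1.29 in GF skin (adjusted p = 4.03e-05) and -0.19 in SPF skin (adjusted p = 0.324). Its responses differed by -1.10 (adjusted p = 0.0111), those of Rxra, the partner of the vitamin D receptor, by 0.55 (0.00434) and those of Tlr2, a sensor of bacterial lipoproteins, by -0.47 (0.0475). Il17a had 2 counts in GF MC903 skin and 0 in the other groups, and Il22 had 0 counts in all groups. Il17rc, a receptor chain for interleukin-17, rose by 0.91 in GF and 0.89 in SPF skin. Cebpb libraries were widely spread, at 11.1 to 84.7 CPM with MC903 against 1.42 to 32.5 CPM with ethanol in GF skin, and at 10.2 to 107.7 CPM against 1.24 to 2.62 CPM in SPF skin. Its log2 change was 2.06 in GF skin (SE 1.06, adjusted p = 0.102) and 5.12 in SPF skin (SE 1.25, adjusted p = 0.00249), and the difference of -3.06 did not pass (adjusted p = 0.203). Vdr, the receptor for vitamin D, changed by -0.09 and -0.10 (adjusted p = 0.168 and 0.14).

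Of 11 tested genes for receptors and partners, 3 were higher and 5 lower in GF skin, and 4 higher and 6 lower in SPF skin. Over all tested genes 33.4% were higher and 35.1% lower in GF skin, and 35% and 38.8% in SPF skin. Ccr6, a receptor for beta-defensins, had 0 CPM in GF MC903 skin against a mean of 0.295 CPM with ethanol, and a mean of 0.0167 CPM in SPF MC903 skin against 0.426 CPM with ethanol. Slc22a17, a receptor for Lcn2, fell, with log2 changes of -1.17 in GF and -1.51 in SPF skin. Cd44 rose by 1.46 and 1.80 (edgeR adjusted p = 2.82e-09 and 2.17e-10). Mc5r, also a marker of sebaceous glands, fell, with log2 changes of -2.25 and -3.50. Of the 4 sebaceous gland markers, 3 fell and 1, Awat1, rose in each housing. Awat1 averaged 223.1 CPM with MC903 and 94.39 with ethanol in GF skin, and 303.9 and 121.8 CPM in SPF skin. The Cd44 response was lower in GF than in SPF skin (-0.34, adjusted p = 0.0172).

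Proteases that Slpi inhibits or that process the peptides, and their partners, rose in 10 of 14 tested genes in GF skin and fell in 1, and rose in 9 and fell in 1 in SPF skin. Over all tested genes 33.4% rose and 35.1% fell in GF skin, and 35% and 38.8% did in SPF skin. The kallikrein Klk7, which processes human cathelicidin and is inhibited by Slpi, rose by 2.41 in GF and 3.10 in SPF skin. The largest changes were in Lpo (4.64 and 5.23), Tmprss11d (3.99 and 4.90) and Klk14 (3.92 and 4.42). Lpo, lactoperoxidase, is counted in this list but is a peroxidase and no protease. With ethanol, Tmprss11d summed to only 10 counts in GF and 25 in SPF skin, and Klk14 to 17 and 22. The GF response was lower for Klk7 (-0.69, edgeR adjusted p = 0.00111), Klk8 (-0.85, adjusted p = 0.0035) and the protease inhibitor Spink5 (-1.15, adjusted p = 0.000331), where 9.26% of all tested genes were lower and 7.75% higher. Adam17 changed by -0.67 in GF skin (adjusted p = 0.235) and 0.12 in SPF skin (0.833). Elane, the elastase that Slpi inhibits, summed to 2 counts in GF MC903, 9 in GF ethanol, 7 in SPF MC903 and 11 in SPF ethanol skin.

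The housings were also compared directly in these lists, where 41.7% of all tested genes were called with MC903 (20.8% higher, 20.9% lower) and 22% with ethanol (11.6% higher, 10.3% lower). With MC903, 9 of 26 other antimicrobial genes were higher and 3 lower in GF than in SPF skin, led by Retnla (log2 2.28, edgeR adjusted p = 0.00551), Wfdc21 (1.80) and Pglyrp3 (-1.62). With ethanol 4 were higher and 2 lower, led by Retnla (2.35, adjusted p = 0.0115), Pglyrp2 (-1.07) and Wfdc2 (0.85). Retnla, a gene of alternatively activated macrophages, averaged 3.06 CPM in GF MC903 and 2.31 CPM in GF ethanol skin, against 0.627 and 0.452 CPM in SPF MC903 and SPF ethanol skin. Among inducers and regulators 4 were higher and 2 lower with MC903, led by Il1rl2 (-1.54), Il17rc (0.56) and Rxra (0.53), and 3 were higher with ethanol, Il17rc (0.54), Tlr2 (0.52) and Rela (0.27). Among receptors, Mc1r (0.78), Anxa2 (0.46) and Slc22a17 (0.31) led with MC903, and Anxa2 (0.38) and Egfr (-0.33) passed with ethanol. Among proteases and their partners 3 were higher and 5 lower with MC903, led by Tmprss11d (-2.09), Adam17 (-1.40) and Spink5 (-1.21). Adam17 was widely spread in GF MC903 skin, at 14.1 to 64.2 CPM with a median of 16.3, against 79.1 to 89.8 CPM in SPF MC903 skin. It was spread in GF ethanol skin too, at 34.2 to 81.0 CPM.

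The tested genes with levels most like those of each member were found by Pearson correlation of log2 CPM over the 12 libraries, as a description. The libraries share the treatment contrast, so high values are common. Defb6 was followed by Mill1 (r = 0.988), an MHC class I-like gene, Il34, a cytokine that maintains Langerhans cells (r = 0.988), and the transcription factor Gata3 (r = 0.988). Il34 averaged 54.6 CPM in GF MC903, 68.4 in GF ethanol, 11.8 in SPF MC903 and 56.3 in SPF ethanol skin. Gata3 averaged 77.4, 117 and 24.2 CPM in GF MC903, GF ethanol and SPF MC903 skin and 97.9 CPM in SPF ethanol skin. Both were lowest in SPF MC903 skin, as Defb6 was, a likeness for which they were picked by the correlation itself.

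Slpi was followed by the cornified envelope genes Lce3c (r = 0.9996) and Sprr1b (r = 0.997), with Teddm3 between them (r = 0.999). Sprr1b averaged 1382 CPM in GF MC903, 8.28 in GF ethanol, 2918 in SPF MC903 and 6.91 in SPF ethanol skin. Defb1 was followed by Cntln, Acox2 and Rsl1d1 (r = 0.997 each), Defb4 by Lyar (0.994), Stfa3 (0.994) and Chchd1 (0.993), and Defb14 by Sec61g (0.997), Cript (0.995) and Ndufa4 (0.995). Lcn2 was followed by Lrrc47 (0.994), the transcription factor Stat3 (0.993) and Cenpa (0.992), and Defb3 by Sfpq (0.992), Slc30a10 (0.989) and Gar1 (0.989). Slc30a10 shared with Defb3 a count of 0 in every ethanol library.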

How the data were processed

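RNA from mouse ear skin was sequenced in 12 libraries, 3 in each of 4 groups. The submitters' processing notes list HISAT2 2.1.0, StringTie 1.3.4d, Trimmomatic and bcl2fastq 2.20.0, and mm10 as the build; settings, annotation and strand are not given there. Per the file headers, the authors deposited for each gene both estimated counts and FPKM values in every library. FPKM is corrected by the authors for gene length and depth.

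Estimated counts, rounded to whole numbers where needed, were tested with edgeR 4.0.16 (R 4.3.3): TMM scaling, the filterByExpr filter (minimum count 10, minimum total 15), 1 coefficient per group over all 12 libraries, the quasi-likelihood test and Benjamini-Hochberg adjustment over 16466 genes at 0.05. Library totals of 36358294 to 48225425 set the precision; counts cover counting error only, and a count of 0 allows 3 counts, or 0.0553 to 0.0987 CPM in a library. DESeq2 1.42.0, limma 3.58.1 voom, other scalings, no filter, fits of only the groups compared, leaving out each library and a replicate block were the alternatives. No pair of libraries within a group was a duplicate (chi-square of 17.7 to 45.7 per degree of freedom). Same-numbered libraries of a housing did not deviate together in every pair, so the numbers were not used as pairs. With 3 libraries per group this does not settle whether they are pairs.

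The members and lists were chosen with earlier results of these data known. Named were every member, per list and comparison up to 3 genes with the largest called change and those whose direction differed between housings, the 3 genes most correlated with each member, and tested genes within 250 kb of Slpi. Krt10, Il17a, Il22, Vdr, Elane, Defb25 and genes given beside a listed gene for their role were chosen after their values were seen. Gm39139 was named because it overlaps Defb14. Promoter sequence came from RefSeq (GRCm38.p6) and 24462 of 24532 gene IDs matched it.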

Additional observations from a re-analysis of the deposited data

Results flagged for a closer look

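The response to MC903 differed between GF and SPF skin in 2 members by the test of the difference itself. For Defb6 the response was higher in GF than in SPF skin by 3.38 on the log2 scale (SE 0.28, edgeR adjusted p = 3.45e-05, 3 libraries per group). All 3 GF and all 3 SPF MC903 libraries lay below the ethanol libraries of their housing. Leaving out each library in turn gave values between 3.12 and 3.71. For Defb1 it was lower by 1.14, a log2 difference of -1.14 (SE 0.12, adjusted p = 0.000115), with values between -1.21 and -1.08 when each library was left out. Of all tested genes, 17% were called in this comparison.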

How the results depend on the processing

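Over the alternatives run, 611 of 625 member changes kept their direction and their side of the threshold, 9 no longer passed, 5 newly passed and 0 reversed. Of 185 totals of genes or members called in either direction, 176 stayed within 1.5 times, and the others concerned GF against SPF skin with ethanol. There the members called numbered 2 in a fit of only the groups compared and 0 to 2 when each library was left out, against 1, and the genes called ranged from 1475 to 3981, against 3616; the cause was not tested. With the label number added as a replicate block, which is no shown pairing since 1 of 6 pairs correlated above 0.1 (-0.02 to 0.14) and 6 of 12 libraries correlated best with their own number, genes called were 11072 (GF response), 11950 (SPF response) and 2303 (difference), against 11274, 12149 and 2800, and members called stayed at 7, 7 and 2. The split into higher and lower calls moved more than these totals: upper-quartile scaling gave 4520 higher and 7072 lower calls in GF skin and 4919 and 7455 in SPF skin. On library totals the difference had 1656 higher and 1151 lower calls, against 1276 and 1524, and GF against SPF skin with ethanol 1420 and 2218, against 1914 and 1702. Depth limits Camp, Defb3 and the ethanol level of Defb4.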

Other observations

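Upstream windows were also aligned for the neighbours of Defb6 and Defb3 in the cluster. The 250 bases before Defb8 aligned to those of Defb3 with 87.6% identity and to those of Defb6 with 79.1%, those of Defb46 with 84.6% and 76.4%, those of Defb5 with 83% and 78.7%, and those of Defb7 with 72.5% and 69.2%. Defb46, Defb7 and Defb8 had 0 counts in every library and Defb5 had 2 counts in all.

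Around Slpi, 25 other genes of the table lie within 250 kb and 11 were tested. With MC903, 7 rose and 1 fell in GF skin, and 7 rose and 2 fell in SPF skin, with median log2 changes of 0.45 and 0.60. Over all tested genes 33.4% rose and 35.1% fell in GF skin, and 35% and 38.8% in SPF skin, with medians of -0.07 and -0.10. The Slpi relatives Wfdc12 and Wfdc5 rose by 5.30 and 1.75 in GF skin and by 5.10 and 1.94 in SPF skin, and Wfdc2 changed by 0.17 and 0.01 (edgeR adjusted p = 0.342 and 0.977). Mir7678, which is counted among the genes that rose and lies within Slpi, so that its reads may be those of Slpi, had changes of 5.51 and 6.07. Stk4, Sys1, Dbndd2 and Pigt rose in both housings, by 0.40 to 0.79 in GF and 0.48 to 1.20 in SPF skin. Kcns1 fell by 1.27 in GF and 1.89 in SPF skin. Sdc4 changed by -0.01 in GF skin (adjusted p = 0.891) and fell by 0.29 in SPF skin, and Matn4 changed by -0.12 and -0.17 (adjusted p = 0.517 and 0.343). The response of Sys1 was lower in GF than in SPF skin (-0.41, adjusted p = 0.0381).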
